A study of Mus musculus with 2 samples.

Results

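The Mir302/Mir367 and Mir290-295 clusters are groups of miRNA genes best known from pluripotent cells, and their counts were examined here in the embryonic mouse limb. The 8 genes studied were Mir302a, Mir302b, Mir302c, Mir302d and Mir367 of the first cluster and Mir291a, Mir294 and Mir295 of the second, found by symbol among 1973 counted miRNA genes. The remaining counted genes of the second cluster, Mir290a, Mir292, Mir291b and Mir293, are given beside them, which makes 12 genes in all. The libraries came from total RNA of healthy limbs of B6NCrl embryos at day 13.5, with male and female embryos pooled. RNA was restricted to a short size range. The p-values below set the 2 libraries against each other under counting error alone, and a difference between them may be technical in part. The series holds 1 group with 2 biological replicates, whose tissue samples have separate identifiers but 1 donor label. It holds no earlier stage and no pluripotent cells, so no change over time was measured, and in whole tissue fewer cells of a type and less RNA per cell cannot be told apart.

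Both clusters are transcribed as long precursors that are cut into hairpins, each of which yields a short mature miRNA from 1 or both of its arms. In mouse, Mir290-295 is active in the early embryo and in embryonic stem cells, Mir302/Mir367 rises in the epiblast after implantation, and both are switched off as cells differentiate. Their main miRNAs pair with targets through the same seed, the stretch near the 5′ end that sets target choice, and are known for promoting the cell cycle and for holding back differentiation. Mir367 is different in kind, as its seed is that of the Mir25 and Mir92 family.

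The seeds are shown first, because they tie the clusters to each other and to abundant miRNAs of the limb. All 8 genes had an entry in RefSeq on GRCm38.p6. The mature sequences below are written 5′ to 3′, all from the plus strand, with bases 2 to 8, the seed, in capitals.
miR-302b-3p, chr3:127545275-127545297: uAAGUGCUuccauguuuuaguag
miR-302d-3p, chr3:127545665-127545687: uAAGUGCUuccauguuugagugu
miR-302c-3p, chr3:127545406-127545427: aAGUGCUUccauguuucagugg
miR-291a-3p, chr7:3218968-3218989: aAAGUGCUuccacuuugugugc
miR-294-3p, chr7:3220691-3220712: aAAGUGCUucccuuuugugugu
miR-295-3p, chr7:3220815-3220837: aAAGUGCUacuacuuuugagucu
miR-293-3p, chr7:3220390-3220411: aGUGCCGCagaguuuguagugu
miR-367-3p, chr3:127545779-127545800: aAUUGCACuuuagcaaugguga
The seed AAGUGCU was shared by miR-302b, miR-302d, miR-291a, miR-294 and miR-295. As annotated, miR-302c-3p begins 1 base later, so its seed is the same stretch moved along by 1 base. miR-293, from the hairpin just before that of Mir294, carries a different seed. Of Mir302a the table holds the 5p arm and the hairpin, in which AAGUGCU stands once, in capitals here:
Mir302a hairpin, chr3:127545496-127545564: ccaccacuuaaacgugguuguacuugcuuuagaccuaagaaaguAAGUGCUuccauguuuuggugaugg

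On mm10 the 5 hairpins of Mir302/Mir367 lie within 580 bases of chromosome 3, from 127545228 to 127545807 on the plus strand, in the order Mir302b, Mir302c, Mir302a, Mir302d and Mir367. All 5 lie in introns of Larp7, a gene of the opposite strand that codes for an RNA-binding protein of the 7SK particle. The Mir290-295 hairpins are spread over 2216 bases of chromosome 7, from 3218626 to 3220841 on the plus strand. There Mir291a, Mir292, Mir291b, Mir293, Mir294 and Mir295 overlap untranslated exon sequence of Nlrp12, again on the opposite strand, and Mir290a lies outside that gene. No antisense count was found at any of the 12 genes in either library, so their raw counts on the sense strand and on either strand were equal.

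The libraries held 5927321 sense counts in miRNA genes in replicate 1 and 6003632 in replicate 2. Levels are given as CPM, which is sense counts scaled to these totals. Each count belongs to a whole hairpin, arms not separated, and CPM was not divided by length because the 22 annotated mature arms of the 12 genes are all 21 to 24 bases long. A count of 0 allows up to 3 counts. That is 0.506 CPM in replicate 1, and in replicate 2 it is 0.4997 CPM. This limit and all intervals (95% exact Clopper-Pearson) cover counting error only. The marker lists were chosen with earlier results of these data known, so their counts are descriptions. All 8 limb marker genes had at least 10 counts in each library, at 74.8 to 75238 CPM, against 18.9% of all counted genes. Of 8 markers of other organs 4 did so, led by the endocrine gene Mir375 at 838 CPM, and the 3 neuronal Mir124a genes were at 0. Those 3 each share 22 or more bases with another annotated hairpin and multimapping reads enter no gene, so their 0 is no check of the tissue. The 2 lists overlapped in level, with the limb marker Mir451a at 74.8 CPM and the liver marker Mir122 at 73.7 CPM. The part of other tissues in the cluster counts was not tested.

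Mir302/Mir367 was present at a low level and its sum was nearly the same in both libraries. Replicate 1 held 782 counts, or 132 CPM (interval 123 to 142), and replicate 2 held 777, or 129 CPM (120.5 to 139). The mean was 131 ± 1.8 CPM (SD, n = 2), which is 0.0131% of the counts in miRNA genes. All of it came from the 4 Mir302 genes.

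Mir302a was the highest of the 8 genes, with 325 counts in replicate 1 and 292 in replicate 2, or 54.8 and 48.6 CPM. Its mean of 51.7 ± 4.4 CPM (SD, n = 2) placed it at rank 222 of 1973 genes. The genes next to it by mean CPM were Mir146 at 52.3 ± 1.9 CPM and Mir7-1 at 51.5 ± 2.1 CPM, both within its spread. Among the 372 genes with at least 10 counts in each library 221 lay above Mir302a, whose mean was below their median of 106 CPM.

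Mir302d, the fourth hairpin of the row, had 266 and 223 counts, or 44.9 and 37.1 CPM. Mir302b, the first hairpin, had 164 and 208 counts, or 27.7 and 34.6 CPM. The order Mir302a, Mir302d, Mir302b, Mir302c was the same in both libraries. It was not resolved between Mir302d and Mir302b: their log2 ratio was 0.40 ± 0.42 (SD, n = 2). In replicate 1 the ratio was 1.62 with an interval of 1.33 to 1.98, above 1 by counting error, while in replicate 2 it was 1.07 with an interval of 0.884 to 1.30. Mir302a exceeded Mir302d by a log2 ratio of 0.34 ± 0.07 (SD, n = 2), with the interval of the ratio above 1 in each library. Mir302a and Mir302b share 20 identical hairpin bases, and the first 18 bases of miR-302b-3p stand in 1 other annotated hairpin. Multimapping reads are listed apart from the genes, so both may be undercounted. Mir302d shares at most 17 bases and Mir302c 16, and no annotated whole mature arm of the 12 genes was found in a second hairpin.

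Mir302c stood well below its neighbours in the same precursor. It had 27 counts in replicate 1 and 54 in replicate 2, or 4.56 and 8.99 CPM, and a mean of 6.77 ± 3.14 CPM (SD, n = 2). Mir302b, whose hairpin ends 61 bases before it, was 4.78-fold higher, a log2 ratio of 2.26 ± 0.46 (SD, n = 2). The intervals of Mir302c and Mir302b did not overlap in either library.

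Mir367, the last hairpin, had 0 counts in both libraries, although it begins only 43 bases after the end of Mir302d. The limit of 3 counts leaves it at least 88.7-fold below Mir302d in replicate 1 and at least 74.3-fold below in replicate 2. Mir367 shares at most 11 bases with another annotated hairpin; sequence outside the annotated hairpins was not searched. A count of 0 was common, as 63.8% of the 1973 genes had none in either library.

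**Figure D1:**
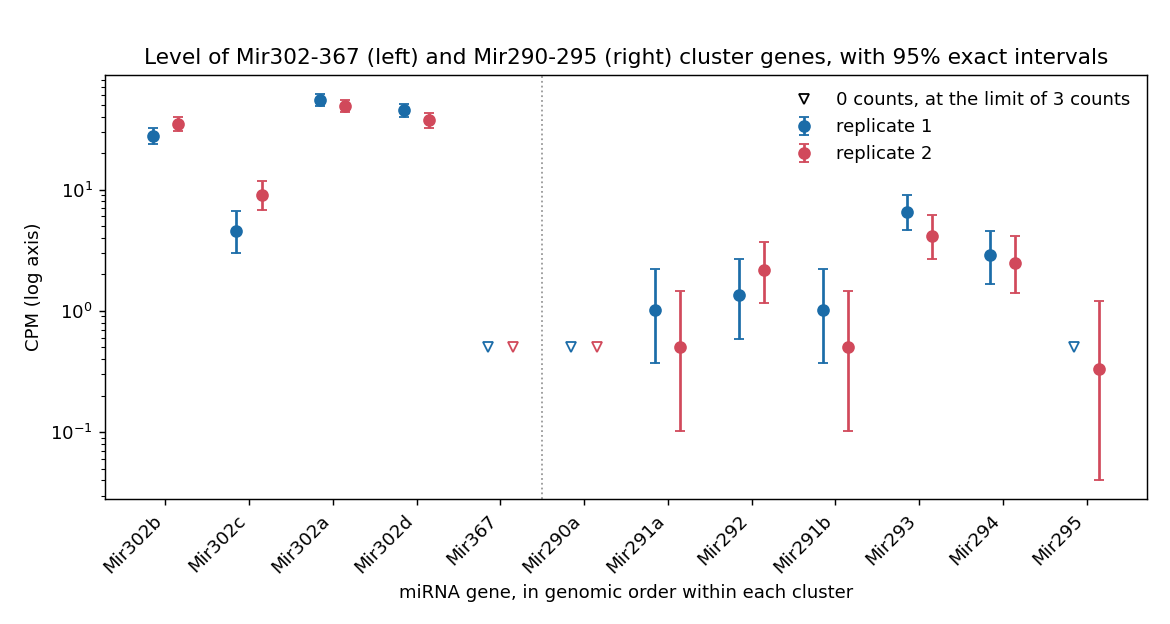
CPM on a log axis for the 12 cluster genes in genomic order, with a point for each library, bars for 95% exact intervals and open triangles at the limit of 3 counts for a count of 0. Mir302a, Mir302d and Mir302b lie between 27.7 and 54.8 CPM, while all Mir290-295 genes lie under 7 CPM and Mir367 and Mir290a are at 0 in both libraries.

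Mir290-295 was close to the limit of what these libraries can show. Its 3 studied genes held 23 counts in replicate 1, or 3.88 CPM (interval 2.46 to 5.82), and 20 in replicate 2, or 3.33 CPM (2.03 to 5.14). The mean was 3.61 ± 0.39 CPM (SD, n = 2). Mir294, one of the most abundant miRNA genes of mouse embryonic stem cells, made up most of this, with 17 and 15 counts, or 2.87 and 2.50 CPM. Its mean of 2.68 ± 0.26 CPM (SD, n = 2) was at rank 350, and 21 of the 372 genes with at least 10 counts in each library lay below it. Mir1947, at 2.69 ± 0.97 CPM, and Mir3076, with the same counts as Mir294, were its neighbours by level. Mir6958 also had the same mean CPM as Mir294.

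Mir291a had 6 and 3 counts, or 1.01 and 0.4997 CPM, so its second value lay at the limit that a count of 0 allows. It shares 20 bases with Mir291b, which also had 6 and 3 counts, and both values are uncertain. Mir295, the last hairpin of the cluster, had 0 counts in replicate 1 and 2 in replicate 2, where its level was 0.333 CPM (interval 0.0403 to 1.20). No difference between the libraries could be seen for Mir295 at this depth.

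The highest gene of the cluster was outside the 3. Mir293 had 39 and 25 counts, or 6.58 and 4.16 CPM, with a mean of 5.37 ± 1.71 CPM (SD, n = 2). It made up 51.3% (interval 39.6 to 63.0) of the cluster's counts in replicate 1 and 41.0% (28.6 to 54.3) in replicate 2. Its place above Mir294 was resolved by counting error in replicate 1, where the ratio was 2.29 (1.27 to 4.32), but not in replicate 2, where it was 1.67 (0.845 to 3.40). Mir292 had 8 and 13 counts, and Mir290a, the first hairpin, had 0 in both. With all 7 counted genes the cluster summed to 76 and 61 counts, or 12.8 and 10.2 CPM, a mean of 11.5 ± 1.9 CPM (SD, n = 2), so the 3 studied genes held 30.3% and 32.8% of it. The genes with the stretch AAGUGCU in the hairpin or 3p arm thus held the smaller part of the Mir290-295 counts. In Mir302/Mir367 such genes held every count, though only Mir302b and Mir302d have it as the seed of an annotated 3p arm. Arms were not separated, so how many of these counts carry the seed is not known.

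**Figure D2:**
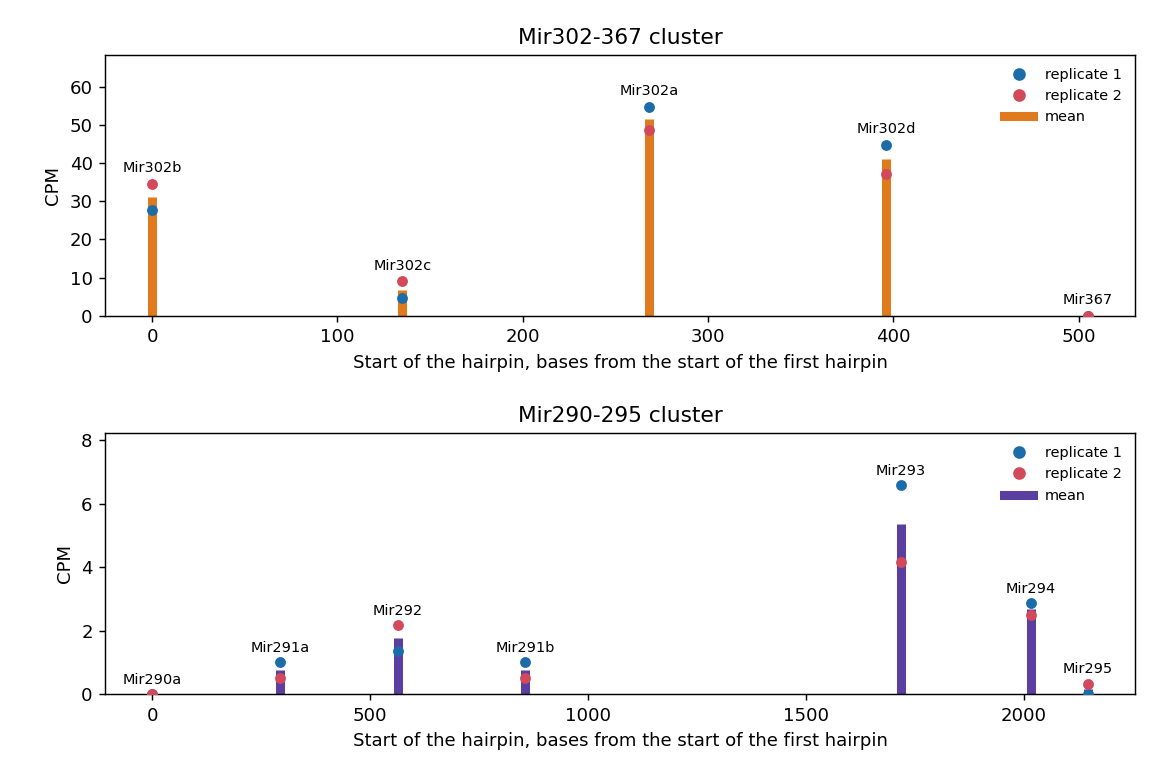
CPM of each hairpin gene against its start in bases from the first hairpin, for Mir302/Mir367 above and Mir290-295 below, with bars for the mean and points for the libraries. Mir302c dips to 6.77 CPM between Mir302b and Mir302a, and in the second cluster, on a scale that ends near 8 CPM, Mir293 is the highest at 5.37 CPM.

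Set side by side within each library, where library size cancels, Mir302/Mir367 far exceeded Mir290-295. The ratio was 34.0 in replicate 1 (interval 22.5 to 54.0) and 38.9 in replicate 2 (25.0 to 64.0). The mean log2 ratio was 5.15 ± 0.13 (SD, n = 2), or 35.5-fold. Against all 7 counted genes of the second cluster it was 3.51 ± 0.22 (SD, n = 2), or 11.4-fold, and both libraries had the same direction. With 2 libraries the smallest two-sided exact p is 0.5, so the ratio was not tested over samples. Gene by gene the clusters met at Mir302c and Mir293. The ratio of Mir302c over Mir293 was 0.692 in replicate 1, with 27 against 39 counts and an interval of 0.408 to 1.16 that includes 1. In replicate 2 it was 2.16, with 54 against 25 counts and an interval of 1.32 to 3.62, so their order was not resolved over the 2 libraries.

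Counted by a minimum of 10 sense counts in each library, 5 of the 8 genes were detected, 4 of 5 from Mir302/Mir367 and 1 of 3 from Mir290-295. Over all genes 18.9% reached that minimum. At least 1 count in each library was found for 6 of the 8, against 28.9% over all genes. The genes had been chosen with earlier results of these data known, so these shares are descriptions. Which genes reach the minimum depends in part on depth. At the mean levels measured, an expected 10 counts would need a library of 193370 counts in miRNA genes for Mir302a and 1472957 for Mir302c. For Mir294 it would need 3728423, for Mir291a 13256614 and for Mir295 59654765. The last 2 are rough, as they rest on 6 and 3 counts for Mir291a and on 0 and 2 for Mir295. The values for Mir291a and Mir295 exceed the depth of both libraries.

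**Figure D3:**
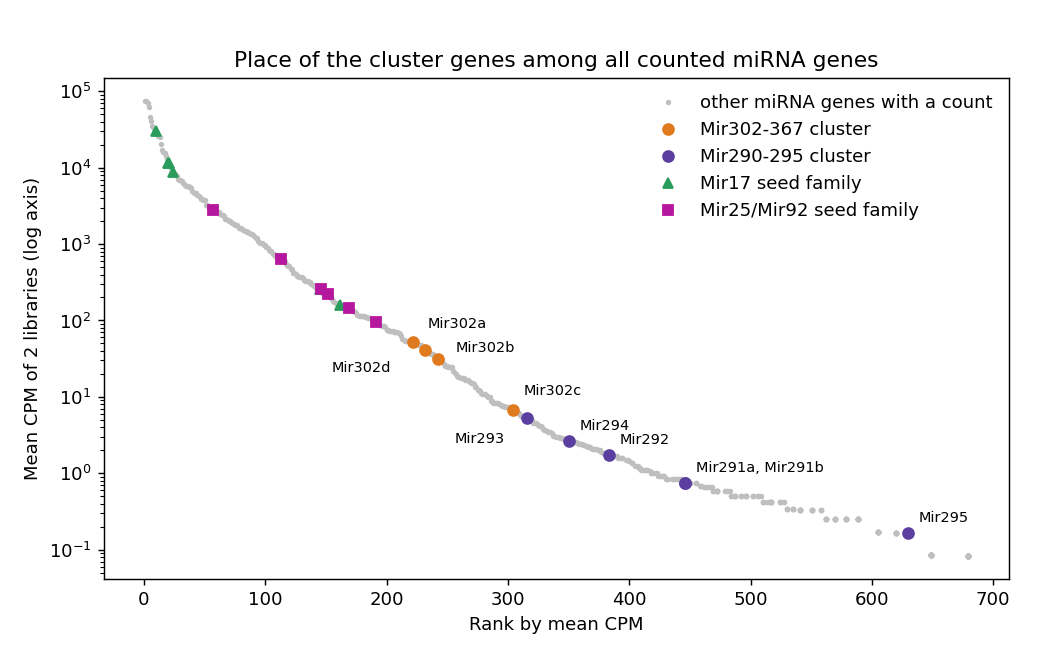
Mean CPM on a log axis against rank for the miRNA genes with any count, with the 2 clusters and the 2 seed families marked. Mir302a at rank 222 leads the cluster genes, and the 12 listed genes of the Mir17 and Mir25/Mir92 seed families lie above it.

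The libraries were then compared gene by gene by the two-sided exact binomial test. Its p-values were adjusted (Benjamini-Hochberg) over the 410 genes with at least 10 counts in 1 library, with calls at an adjusted p of 0.05 and an absolute log2 ratio of at least 1. Of the 5 studied genes that could be tested none was called, against 3.41% of all genes tested. Mir302c came nearest, with a log2 ratio of replicate 2 over replicate 1 of 0.97 (adjusted p = 0.0102, exact test). It was the only one of the 5 past the adjusted p alone, which 43.7% of all genes were, and 7.07% of genes had a ratio as large or larger. Mir302b was higher in replicate 2 by a log2 ratio of 0.32 (adjusted p = 0.0741, exact test). Mir302d had a log2 ratio of -0.27 (adjusted p = 0.0819, exact test) and Mir302a -0.17 (adjusted p = 0.258, exact test). Mir294 had a log2 ratio of -0.19 (adjusted p = 0.832, exact test). The median absolute log2 ratio over all genes tested was 0.18. The test sets 1 library against the other and takes in no error beyond counting.

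**Figure D4:**
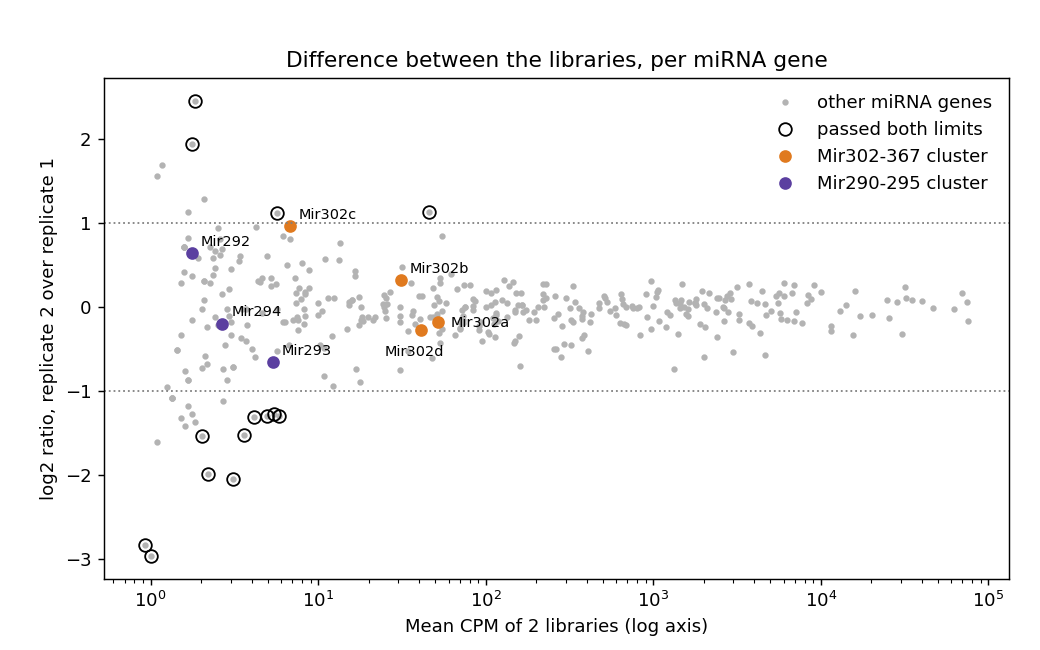
Log2 ratio of replicate 2 over replicate 1 against mean CPM on a log axis for the 410 genes tested, with dotted lines at a ratio of 1 and -1 and rings around the genes that passed both limits. Mir302c, at 0.97, sits just inside the upper line, and the other cluster genes lie nearer to 0.

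While the Mir302 sum was steady, the measured shares of its genes were not the same in the 2 libraries. Mir302b and Mir302c, the hairpins at the 5′ end, held 24.4% of the Mir302 counts in replicate 1 (interval 21.5 to 27.6) and 33.7% in replicate 2 (30.4 to 37.2). Mir302a and Mir302d held the rest, 75.6% and 66.3%. The intervals of the 2 libraries did not overlap, but they cover counting error only. Between these libraries 43.7% of all genes tested passed the adjusted p without a minimum ratio. This split was chosen after its values were seen and was not tested.

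**Figure D5:**
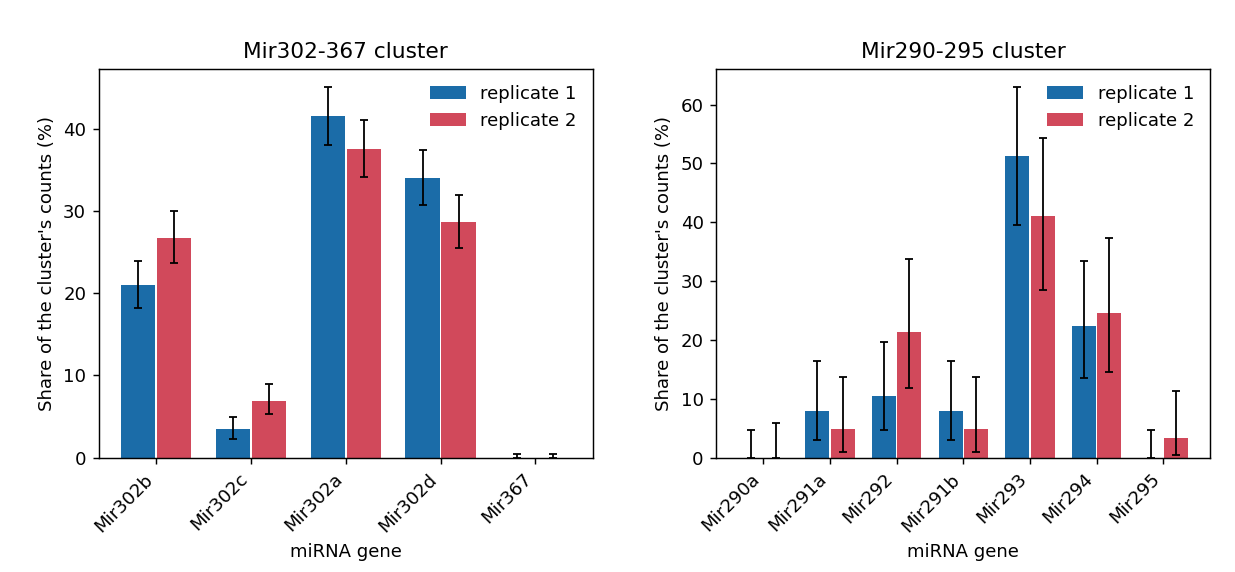
Share of each cluster's counts held by each gene, in percent, with a bar for each library and 95% exact intervals. Mir302b and Mir302c take a larger share in replicate 2 and Mir302a and Mir302d in replicate 1. Between the libraries only the intervals of Mir302c are apart, while those of Mir302a, Mir302b, Mir302d and all Mir290-295 genes overlap.

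The limb held much larger amounts of miRNA genes with related seeds. The Mir17 family, which promotes proliferation, reads the same letters AAGUGC moved by 1 base, as its seed shows:
miR-17-5p: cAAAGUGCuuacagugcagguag
miR-20a-5p: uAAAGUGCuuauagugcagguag
All 6 listed genes of this family, Mir17, Mir20a, Mir20b, Mir93, Mir106a and Mir106b, were detected. Mir6383, outside the list, has an annotated arm with the same seed and had 0 counts in both libraries. The 6 held 402224 counts in replicate 1 and 345379 in replicate 2, a mean of 6.27% ± 0.73 (SD, n = 2) of the counts in miRNA genes. Mir17 alone reached 30533 ± 4775 CPM, and the lowest of the 6, Mir20b, 160.0 ± 54.1 CPM, which is above Mir302a. The family exceeded the 8 genes by a log2 ratio of 8.86 ± 0.15 (SD, n = 2), or 465-fold. Of the summed counts the 8 genes thus made up a small remainder, with 99.8% in the Mir17 family in each library.

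For Mir367 the related family is that of Mir25 and Mir92, whose miRNAs carry its seed AUUGCAC:
miR-25-3p: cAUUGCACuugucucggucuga
miR-92b-3p: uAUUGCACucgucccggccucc
miR-363-3p: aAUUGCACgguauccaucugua
All 6 counted genes of this family were detected, with 24910 and 24516 counts, a mean of 4143 ± 84.2 CPM (SD, n = 2). Mir92-1 led at 2784 ± 79.7 CPM, followed by Mir25 at 642 ± 51.8 CPM. Mir363 was at 148 ± 30.9 CPM. Against the limit of 3 counts for Mir367 the family was at least 8303-fold higher in replicate 1 and at least 8172-fold higher in replicate 2. The whole arm miR-92a-3p stands in both Mir92-1 and Mir92-2, so their counts may be too low.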

How the data were processed

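MicroRNA sequencing of embryonic limb gave 2 libraries in 1 group. The authors deposited raw read counts per miRNA gene (unit: counts) in 3 columns, either strand, sense and antisense, after 4 lines for reads in no gene. The columns carry no header and were identified from their layout and from the first being the sum of the others. The build is mm10 per the labels and the deposited text names annotation M4, with the aligner and counter not given in the sources used here. In replicates 1 and 2, 17.2% and 18.6% of reads were unmapped, 30.8% and 29.5% multimapping, and 4.24% and 4.48% mapped once but to no gene in sense. These lines stayed out of library sizes and tests.

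Symbols and coordinates came from GENCODE M21 on the same build (1894 of 1973 identifiers matched without version), and mature sequences from RefSeq GRCm38.p6. Stretches of at least 18 or at least 22 identical bases shared between annotated hairpins were listed. CPM, exact intervals, ratios (0.5 counts added on the log2 scale) and exact binomial tests used Python 3.11.15 and scipy 1.17.1. Library sizes for alternatives came from edgeR 4.0.16 (TMM) and DESeq2 1.42.0 (size factors). The binomial test was tested on data simulated with counting error alone, which cannot show how it behaves with further variation between libraries. The members and lists were chosen with earlier results of these data known. Named genes were the 8, the remaining counted genes of both clusters, both seed families, and the genes next in level to the highest studied gene of each cluster.

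Alternatives were the strand, the denominator, genes sharing bases, the most abundant member, medians, the whole cluster, the count minimum, the minimum ratio, the pseudocount and each library alone.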

Additional observations from a re-analysis of the deposited data

How the results depend on the processing

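Every alternative tried kept Mir302/Mir367 above Mir290-295, with a log2 ratio of 3.51 against all counted genes of the second cluster, 4.03 without genes sharing 18 or more bases, 4.35 per gene and 6.30 without the most abundant member of each; each library alone gave 5.06 and 5.25. The Mir302/Mir367 level was 132 CPM in replicate 1 alone and 129 CPM in replicate 2 alone. It was 126 CPM with both strands in the total, 119.7 CPM over uniquely mapped reads, 62.2 CPM over all reads, 78.9 CPM without Mir302a, 47.8 CPM without genes sharing 18 or more bases, which removes Mir302a and Mir302b, and 31.2 CPM as a median. The Mir290-295 level was 3.88 CPM in replicate 1 alone and 3.33 CPM in replicate 2 alone. It was 1.72 CPM over all reads, 2.85 CPM without genes sharing 18 or more bases and 0.923 CPM without Mir294. As a median it was 0.756 CPM, and over all counted genes 11.5 CPM.

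The log2 ratio of the Mir17 family over the 8 genes was 8.76 and 8.96 in each library alone, 10.27 without genes sharing 18 or more bases, 8.60 without the most abundant members and 11.06 between medians. For the Mir25 and Mir92 family over Mir367 the log2 ratio with 0.5 counts added was 15.59 (15.60 and 15.58 in replicates 1 and 2). It rests on the added count and is no bound: it was 14.59 with 1 count added, 13.88 without genes sharing 18 or more or 22 or more bases, 13.99 without Mir92-1 and 11.47 for the median gene. The number of the 8 genes detected was 4 with a minimum of 20 counts, 5 with 5 counts, 6 with 1 count and 5 in each library alone. The number called different between the libraries was 0 under every scaling tried, and 1, Mir302c, without the minimum ratio. No paired analysis was possible because there is only 1 group. The counts of Mir291a, Mir291b and Mir295 are 6 or fewer in each library, so their levels are uncertain. Loss of reads shared by Mir291a and Mir291b was not tested.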
